A study of Homo sapiens with 6 samples.

Results

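The accessible regions described here lie in long runs, stretches of the genome in which 5 or more regions follow each other with gaps of at most 1000 bases between the end of one and the start of the next. They were found by position alone, among the 226626 regions of the comparison of 18 h with 2 h. Of these, 16311 (7.2%) lay in 2310 runs and were named for 2230 of 18765 gene names. The measured cells were A375, an established human melanoma line, in 3 groups of 2 libraries. The mock group was untreated, and the other groups received recombinant HMGA1 protein for 2 h or for 18 h. No time is given for the mock group, so a changing effect of HMGA1 cannot be told apart from other differences between the times. The labels speak of biological replicates without saying that the cultures were separate, so the p-values reflect only how far these libraries differ, which may be technical. Cells were frozen in a medium with DMSO, and a service provider treated them with DNase I, prepared libraries with Tn5 transposase and read each fragment from both ends.

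ATAC-seq uses Tn5 to insert sequencing adapters into DNA that is not wrapped or covered, so that read pile-ups mark open chromatin such as promoters and enhancers. Stretches with many neighbouring regions are known from broad enhancers and from the bodies of highly transcribed genes. HMGA1 is a small architectural protein of chromatin that holds AT-rich DNA in its minor groove through short motifs called AT hooks. It acts in the nucleus, and the study's title names its internalization by melanoma cells as the question. In pooled cells, an opening in more cells and a wider opening in each cell cannot be told apart.

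Several runs with large values lay kilobases away from the starts of the genes they were named for, so the sequences upstream of 4 of these starts are shown for comparison. They are the 250 bases before the start in RefSeq's annotation of GRCh38.p14, on the strand of the gene: THBS1 (chr15:39580829-39581078, + strand), SLC7A5 (chr16:87869508-87869757, - strand), MYOF (chr10:93482335-93482584, - strand) and RPS23 (chr5:82278355-82278604, - strand). Capitals mark a match to 1 of 5 motifs searched on both strands.
THBS1: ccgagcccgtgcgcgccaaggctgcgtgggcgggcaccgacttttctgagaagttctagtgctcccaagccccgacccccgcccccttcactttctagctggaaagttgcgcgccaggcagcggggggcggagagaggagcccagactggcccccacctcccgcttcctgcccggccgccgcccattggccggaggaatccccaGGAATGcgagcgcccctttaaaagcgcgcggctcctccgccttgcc
SLC7A5: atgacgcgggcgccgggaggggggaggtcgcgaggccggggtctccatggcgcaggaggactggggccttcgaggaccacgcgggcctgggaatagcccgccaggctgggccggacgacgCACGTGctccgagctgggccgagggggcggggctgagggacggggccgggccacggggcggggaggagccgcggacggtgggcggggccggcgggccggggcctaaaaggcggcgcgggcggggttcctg
MYOF: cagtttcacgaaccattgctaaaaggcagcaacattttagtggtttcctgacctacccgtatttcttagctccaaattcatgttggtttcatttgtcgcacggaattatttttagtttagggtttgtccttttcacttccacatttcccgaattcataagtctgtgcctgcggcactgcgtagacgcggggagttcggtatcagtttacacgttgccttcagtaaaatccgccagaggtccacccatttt
RPS23: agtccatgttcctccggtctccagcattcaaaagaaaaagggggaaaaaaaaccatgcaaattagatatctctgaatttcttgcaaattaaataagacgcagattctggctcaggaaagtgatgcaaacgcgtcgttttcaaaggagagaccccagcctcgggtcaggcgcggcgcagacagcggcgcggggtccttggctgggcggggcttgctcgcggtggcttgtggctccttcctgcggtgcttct
The capitals in THBS1 are a TEAD motif (GGAATG) that begins 46 bases before the start, and those in SLC7A5 an E box (CACGTG) that begins 130 bases before it. MYOF and RPS23 held none of these letters in this window. The other motifs searched were AP-1 (TGACTCA or TGAGTCA), CRE (TGACGTCA) and the CArG box. Of all 15843 coding promoters of this length, 10.1% held the TEAD motif, 7.84% the E box, 3.17% AP-1, 2.32% CRE and 1.14% the CArG box. Of the 286 promoters whose start lay in a region of a run, 10.5%, 6.64%, 2.1%, 2.8% and 0.35% did. AT content was 30.4% for THBS1, 20.4% for SLC7A5, 55.6% for MYOF and 46.4% for RPS23. The median was 37.6% over all promoters and 32.4% over those that start in a run.

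None of the 4 regions that cover these starts lay in a run, and none was called in any comparison. At 2 h against mock their log2 fold changes in the authors' deposited table were 0.10 ± 0.09 (standard error, SE) for THBS1, 0.24 ± 0.13 for SLC7A5 and 0.12 ± 0.13 for MYOF. For RPS23 the authors' deposited table gave -0.09 ± 0.13 at 18 h against mock. Runs of the same genes had medians of 1.45, 1.25 and 1.07 at 2 h and, for RPS23, 0.98 at 18 h.

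Most runs were short. They held 5 to 29 regions with a median of 6, and 887 (38.4%) had the minimum of 5, while 341 held 10 or more. A run covered between 2844 and 26436 bases, with a median of 5244.5, and all runs together 14.1 Mb. Within runs the median gap was 388 bases, against 4053 between all neighbouring regions. At the edge of the rule, 1905 stretches had 4 regions, and 393 gaps lay within the last 10 bases allowed against 389 in the next 10. The median mean signal of the regions in stretches of 4 was 34.7, against 33.5 in runs of exactly 5.

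**Figure D1:**
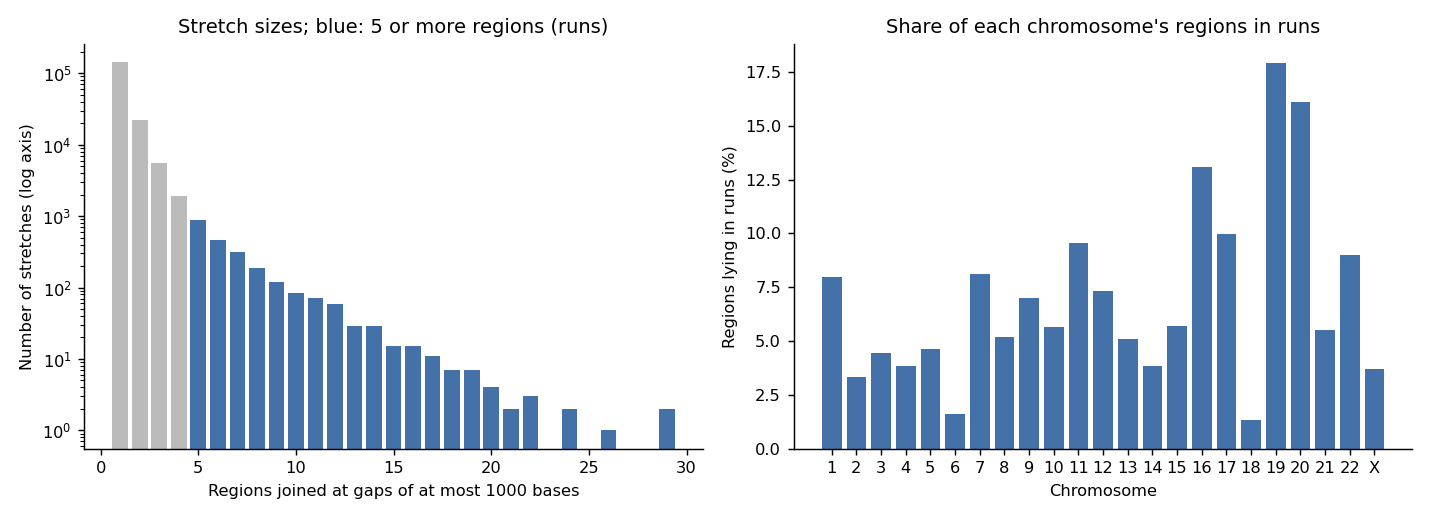
Sizes and chromosomes of the runs. The first panel shows on a log axis how many stretches hold each number of neighbouring regions, from 141821 single regions to 2 runs of 29. The second shows the percent of each chromosome's regions that lie in runs, with 17.9% on chromosome 19 and 1.34% on chromosome 18.

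Runs tended to lie inside genes. A coding gene's span was touched by 69.8% of the regions in runs and 53.5% of the other regions, and the median distance to the named gene start was 14.5 kb against 41.4 kb. Only 8.17% lay more than 100 kb away, against 30.2% of the others. Regions in runs overlapped a gene start less often by share (2.15% against 4.56%), and 336 runs (14.5%) held a start region. A single gene name covered 76.5% of the runs. The share of regions in runs was 17.9% on chromosome 19, 16.1% on chromosome 20 and 13.1% on chromosome 16, against 1.6% on chromosome 6. These shares were not tested.

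The regions of runs were weak. Their mean signal, the mean over all 6 libraries after the authors divided counts by size factors, had a median of 33.4 and an upper quartile of 49.7, against 40.4 and 104 for the other regions. The authors tested only regions above a limit of mean signal (56.2 at 2 h against mock, 101 at 18 h against mock and 41.7 at 18 h against 2 h), and gave the rest an adjusted p of 1. That left 3316 (20.3%), 1549 (9.5%) and 5508 (33.8%) of the members tested, against 38.0%, 24.4% and 47.7% of all regions. The limit applies to the mean over all libraries and so takes no account of the direction of a change. The median SE of a log2 fold change was 0.42, 0.41 and 0.41 over all members and 0.25, 0.17 and 0.30 over the tested ones. The values of single libraries and their depths are not known here, so each region is given by its fold change and SE. Runs and genes named from here on were picked for their medians, uniform sign, size, signal or calls after these values were seen, apart from the genes of the lists. Runs picked for extreme medians had a median mean signal of at least 20.

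After 2 h, 37 members rose and 12 fell against mock (DESeq2, adjusted p under 0.05 in the authors' deposited table). The 37 were 1.12% of the tested members, against 0.856% of all tested regions called higher, and the 12 were 0.362%, against 0.421%. When fold changes were centred on the median tested region, 49 members were called higher and 4 lower, which is 1.48% and 0.121%, against 1.37% and 0.23% of all tested regions. Within 20 bins of mean signal there were 47 and 5 (1.42% and 0.151%, against 1.45% and 0.201%). The higher regions lay in 22 runs and were named for 21 genes, 10 of them for THBS1 and 8 for SLC7A5. Without the runs of THBS1, SLC7A5 and PLEC there were 18 of 3279 tested members, or 0.549%, below the 0.856% of all tested regions. The other genes, with 1 region each, included the G1 cyclin gene CCND1, the receptor kinase gene AXL, the scaffold genes IRS2 and NEDD9, the feedback inhibitor gene SPRY2 and the actin crosslinker gene ACTN4.

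After 18 h, 0 members were higher than mock, against 0.00542% of all tested regions, and 2 were lower (0.129%, against 0.116%). At an unadjusted p under 0.05 stood 17 higher and 120 lower members, together 8.84% of the tested members, against 7.89% of all tested regions. Both called regions lay inside genes. SLC2A1, which encodes a glucose transporter, had -0.51 ± 0.10 (SE; adjusted p = 0.00421) and INPP4B, a phosphoinositide phosphatase gene, -0.87 ± 0.21 (adjusted p = 0.0383) in the authors' deposited table (DESeq2). Centring on the median tested region, at -0.07, or within bins of mean signal left 0 of these members called.

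Between 2 h and 18 h, 136 members fell and 13 rose (DESeq2, authors' deposited table). These were 2.47% and 0.236% of the tested members, against 2.98% and 0.498% of all tested regions. The 136 lay in 80 runs and were named for 73 genes: 16 for SLC7A5, 13 for PLEC, 10 for THBS1, 4 for AXL, and 3 each for GPRC5A, IRS2, NEDD9, IGFBP4 and CRIM1. Outside the runs of SLC7A5, PLEC and THBS1 there were 97, or 1.78% of 5461. This comparison shares its libraries with both comparisons against mock and equals their difference, so the values are given side by side and the 3 comparisons do not support each other.

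**Figure D2:**
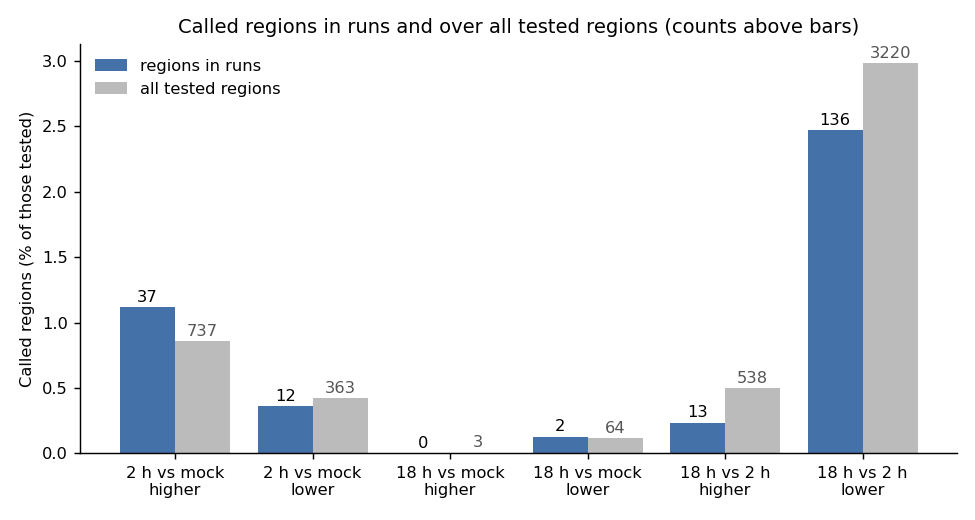
Percent of tested regions called at an adjusted p under 0.05 in each comparison and direction, for regions in runs and for all regions. The shares of members lie at 1.12% (higher at 2 h), 0.362% (lower at 2 h), 0.129% (lower at 18 h), 2.47% (lower from 2 h to 18 h) and 0.236% (higher), beside 0.856%, 0.421%, 0.116%, 2.98% and 0.498% of all tested regions.

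The run of THBS1, the gene of the secreted matrix glycoprotein thrombospondin, had 12 regions (chr15:39589706-39602549), 10 named for THBS1 and 2 for FSIP1, inside whose span they lie. At 2 h the 12 values ran from 0.83 to 1.90 with a median of 1.45, at 18 h against mock from -0.27 to 0.87 with a median of 0.17, and from 2 h to 18 h the median was -1.29. All 10 THBS1 regions rose at 2 h and all 10 fell from 2 h to 18 h. The 2 FSIP1 regions, at the far end, had 1.49 ± 0.35 and 0.83 ± 0.26 at 2 h and stood at 0.87 and 0.53 at 18 h against mock in the authors' deposited table. These 2 values at 18 h lay above those of the 10 THBS1 regions, the highest of which was 0.46.

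TPM1 encodes a tropomyosin, which winds along actin filaments. Its run of 10 regions inside the gene (chr15:63049982-63059037) had medians of 1.31 at 2 h, -0.08 at 18 h and -1.41 from 2 h to 18 h, and 2 regions fell between the 2 times. Along the run the values at 2 h were uneven. In the authors' deposited table the first 3 regions had 0.62 ± 0.37, 0.20 ± 0.15 and 1.0 ± 0.43, and the last 5 had 1.54 ± 0.55, 2.18 ± 0.58, 1.97 ± 0.54, 1.92 ± 0.61 and 1.90 ± 0.63. These last 5 had a mean signal of 15.4 to 21.2, under the authors' limit, and were not tested. The region with the most signal in the run (266) was the one with 0.20.

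Plectin, the product of PLEC, links intermediate filaments to actin and to adhesion sites. Its 2 runs, of 8 and 7 regions inside the gene on chromosome 8 (143918354 to 143923936 and 143925067 to 143931422), had medians of 0.61 and 0.88 at 2 h. At 18 h they lay at -0.76 and -0.28 against mock, and all 15 regions were below mock. Of the 15, 13 fell from 2 h to 18 h, by 0.98 to 1.83 on the log2 scale in the authors' deposited table. The 2 that did not pass had -0.96 ± 0.32 (adjusted p = 0.0728) and, at the region with the most signal (233), -0.44 ± 0.15 (adjusted p = 0.101) in the authors' deposited table.

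FLNA encodes filamin, an actin crosslinker. Its run of 20 regions lay inside the gene (chrX:154350485-154367089), with medians of 0.51, -0.23 and -0.74 in the 3 comparisons, and 1 region fell from 2 h to 18 h (-1.09 ± 0.35, adjusted p = 0.0491, DESeq2, authors' deposited table). All 20 values were below 0 in that comparison and 19 of 20 were above 0 at 2 h. ITGA3, which encodes an integrin subunit for laminins, had a run of 10 with medians of 0.72, -0.25 and -1.0. All 10 values were between 0.61 and 1.36 at 2 h, although only 1 region, at -1.25 ± 0.36 from 2 h to 18 h, was called in the authors' deposited table. The caveolae gene CAV1 had a run of 5 with medians of 1.03, 0.24 and -0.60 and no call.

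ACTN4, which encodes an actinin that crosslinks actin, had 48 regions in 6 runs and a mixed picture. In 1 run of 15, a region with a mean signal of 237 18.3 kb from the gene start rose at 2 h (0.57 ± 0.16, adjusted p = 0.0263) and fell from 2 h to 18 h (-0.98 ± 0.16, adjusted p = 5e-07) in the authors' deposited table (DESeq2). A region of the same run 8.71 kb from the gene start had -0.64 ± 0.20 at 2 h and rose from 2 h to 18 h by 0.64 ± 0.19 (adjusted p = 0.0336, DESeq2, authors' deposited table). This was the 1 run with calls in both directions within a comparison.

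**Figure D3:**
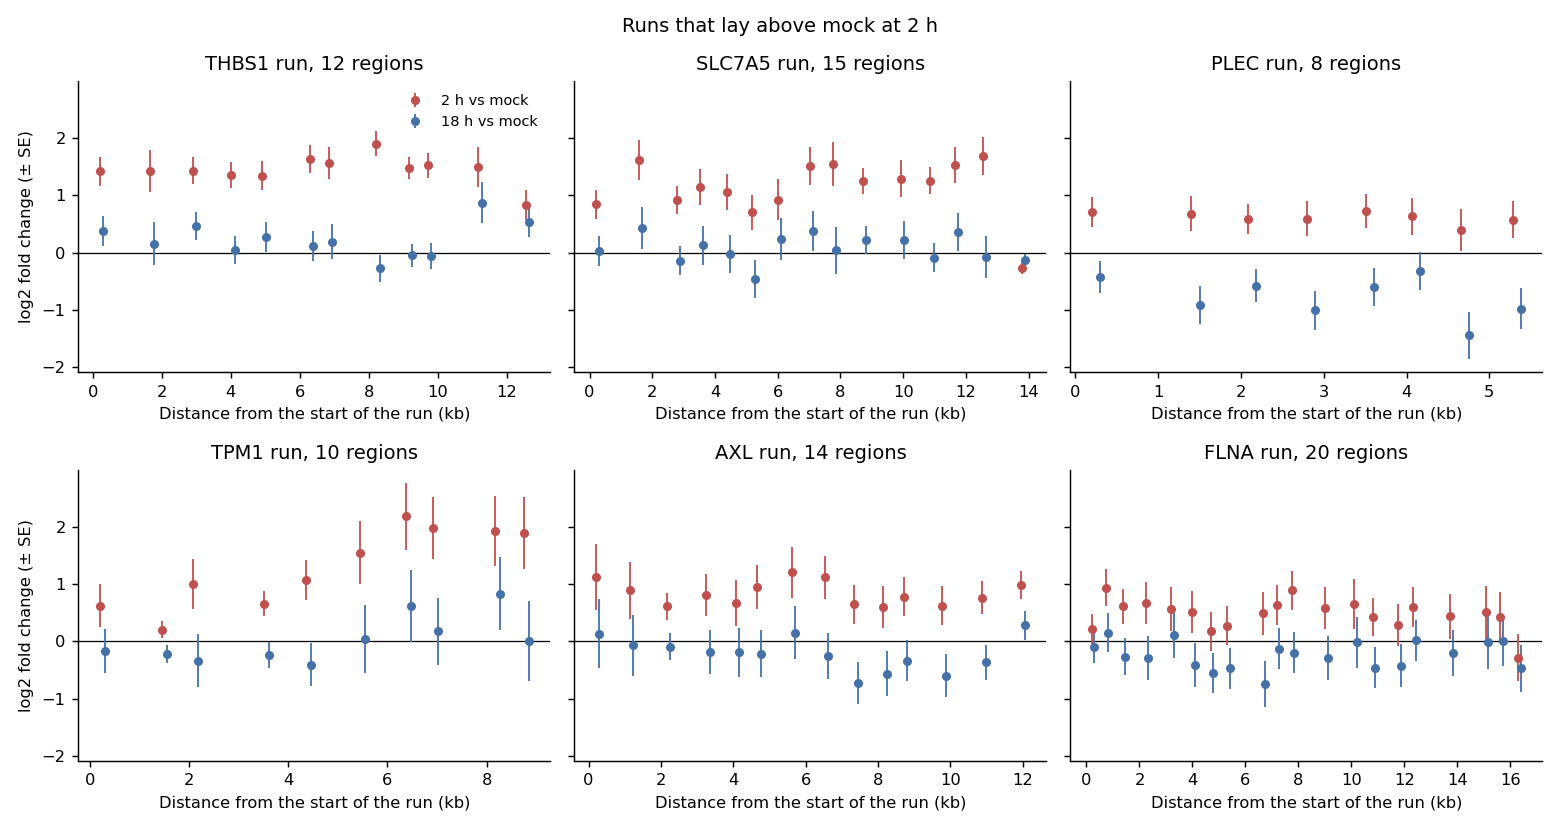
Log2 fold change of each region against mock in 6 runs, plotted against the distance in kb from the start of the run, at 2 h (red) and 18 h (blue), with bars for the SE. In the runs of THBS1 (12 regions), SLC7A5 (15), PLEC (8), TPM1 (10), AXL (14) and FLNA (20) most red points lie above 0 (medians 1.45, 1.25, 0.61, 1.31, 0.80 and 0.51), and the blue medians lie between -0.76 and 0.17.

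SLC7A5, the gene of an importer for large neutral amino acids, formed 2 runs. Its longer run had 15 regions (chr16:87834485-87848571) with medians of 1.25, 0.04 and -1.08. At 2 h 6 regions rose, with values in the authors' deposited table of 0.92 ± 0.24, 1.15 ± 0.32, 1.25 ± 0.23, 1.29 ± 0.32, 1.25 ± 0.24 and 1.52 ± 0.32 in the order of their position. Afterwards 13 of 15 fell by 18 h. The last region, nearest to the gene start at 20.9 kb and with the most signal (740), differed from its neighbours in sign: the authors' deposited table gave -0.27 ± 0.10 at 2 h and 0.14 ± 0.10 from 2 h to 18 h, neither of them called. A second run of 7 regions (chr16:87818365-87825061) lay past the gene end, with medians of 0.86, -0.02 and -0.93. Of these 2 rose at 2 h and 3 fell afterwards.

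AXL, a receptor tyrosine kinase of undifferentiated melanoma cells, had a run of 14 regions along the gene (chr19:41227445-41239708). By the authors' distances the run began 691 bases from a start of AXL, and no region of AXL overlapped such a start. At 2 h the 14 values ran from 0.60 to 1.20, and the last region rose (0.98 ± 0.25, adjusted p = 0.0114, DESeq2, authors' deposited table). From 2 h to 18 h they ran from -1.38 to -0.70 and 4 fell. At 18 h the median was -0.20 against mock.

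MYOF encodes myoferlin, a ferlin of the plasma membrane. It had 42 regions in 7 runs along the gene, with a median of 0.85 at 2 h (41 of 42 above 0), -0.05 at 18 h against mock (15 above 0) and -0.93 from 2 h to 18 h (41 below 0). Only 6, 4 and 8 of them were tested, and 0 passed. The 61 MYOF regions outside the runs had medians of 0.67, -0.10 and -0.73. Its highest runs at 2 h had 7 regions each, at chr10:93302133-93307397 (median 1.06) and chr10:93405755-93411887 (1.07). In the second run the 7 values at 2 h lay between 0.77 and 1.29, and those at 18 h between -0.34 and 0.09, so the values of the 2 times did not overlap.

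CRIM1, which encodes a transmembrane protein that binds bone morphogenetic proteins, had 27 regions in 4 runs with medians of 0.87, -0.07 and -1.02. Of these 3 fell from 2 h to 18 h. Its 136 other regions had medians of 0.45, -0.03 and -0.50. For TPM1 and AXL the medians outside the runs were 0.31 and 0.30 at 2 h, and for THBS1 0.13, against 1.31, 0.81 and 1.45 inside. For SLC7A5 the 14 other regions had 0.90, against 1.06.

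IRS2, an insulin receptor substrate gene, had 25 regions in 3 runs with medians of 0.74, -0.11 and -0.79. In a run of 5 that starts 512 kb from the gene start a region rose by 1.01 ± 0.19 at 2 h (adjusted p = 9.26e-05) and fell by 1.49 ± 0.20 afterwards (adjusted p = 8.28e-11) in the authors' deposited table. Inside the gene a run of 14 had medians of 0.54, -0.33 and -0.81, with 1 region called lower from 2 h to 18 h.

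Further runs had every value on the same side from 2 h to 18 h. The retinoic acid induced receptor gene GPRC5A had a run of 12 with 0.49, -0.41 and -0.94 and 3 that fell. For MAP3K14, a kinase gene of non-canonical NF-kB signalling, adjacent runs of 12 and 10 had 0.65 and 1.09 at 2 h and -0.83 and -0.87 from 2 h to 18 h, with no call. A run of 14 at the transketolase gene TKT had 0.38, -0.12 and -0.64 with no call. A run of 5 named for IGFBP4, which encodes a binder of insulin-like growth factors, had 0.61, -0.38 and -1.18 and 3 that fell. The IGFBP4 run touched no coding gene's span. FEZ2 had a run of 5 with 1.34, 0.28 and -1.06, of which 0 were tested. The run of the carboxypeptidase genes CPA4 and CPA5 had 8 regions, 0 tested, and medians of 1.27, 0.08 and -1.34.

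A3GALT2 encodes a galactosyltransferase of glycolipids. Its run of 14 regions inside the gene (chr1:33308183-33318400) had the lowest median of all runs at 2 h, -1.17, with values from -1.62 to -0.44. At 18 h the median was -0.19, and from 2 h to 18 h 0.88, with all 14 values above 0. The 3 regions tested at 2 h had -1.05 ± 0.31, -1.01 ± 0.30 and -0.81 ± 0.26, with adjusted p = 0.0546, 0.0605 and 0.0891 (DESeq2, authors' deposited table). So 0 of the 14 passed.

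NFE2L3, a bZIP transcription factor gene, had a run of 10 (chr7:26175329-26183697) with medians of -0.73, -0.01 and 0.63. One region fell at 2 h (-0.91 ± 0.26, adjusted p = 0.0446) and another rose from 2 h to 18 h (1.08 ± 0.29, adjusted p = 0.00951) in the authors' deposited table (DESeq2). All 10 were below 0 in the first and above 0 in the second comparison. Towards the gene's end the values at 2 h were nearer 0: the last 2 regions had -0.27 ± 0.27 and -0.05 ± 0.22 in the authors' deposited table.

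DHRS3, which encodes a retinal reductase, had a run of 6, 5 of them past the gene end, with medians of -1.01, 0.51 and 1.44, the last of which was the highest of all runs. Its mean signals were 17.7 to 32.8 and 0 of the 6 regions were tested. SPRY4, a feedback inhibitor gene of MAPK signalling, had neighbouring runs of 5 and 6 with -0.98 and -0.70 at 2 h. They had 0.11 and -0.03 at 18 h and 0.93 and 0.74 between the times, again with 0 tested. Neither of these runs touched a coding gene's span. Over all 37 SPRY4 regions in 5 runs the medians were -0.36, -0.10 and 0.20. The mRNA export gene NXF1 (9 regions, -0.77, -0.17 and 0.55) and the adhesion gene KIRREL3 (10 regions, -0.73, -0.40 and 0.50) had no call in these runs. Another run of 15, 10 of them named for KIRREL3, had more signal (median 76.7 against 30.4). Its medians were -0.06, -0.07 and 0.01. A run of 20 named for WI2-2373I1.1 and FAM20C, which encodes a kinase of secreted proteins, had -0.54, 0.01 and 0.62 with all 20 values above 0 from 2 h to 18 h.

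**Figure D4:**
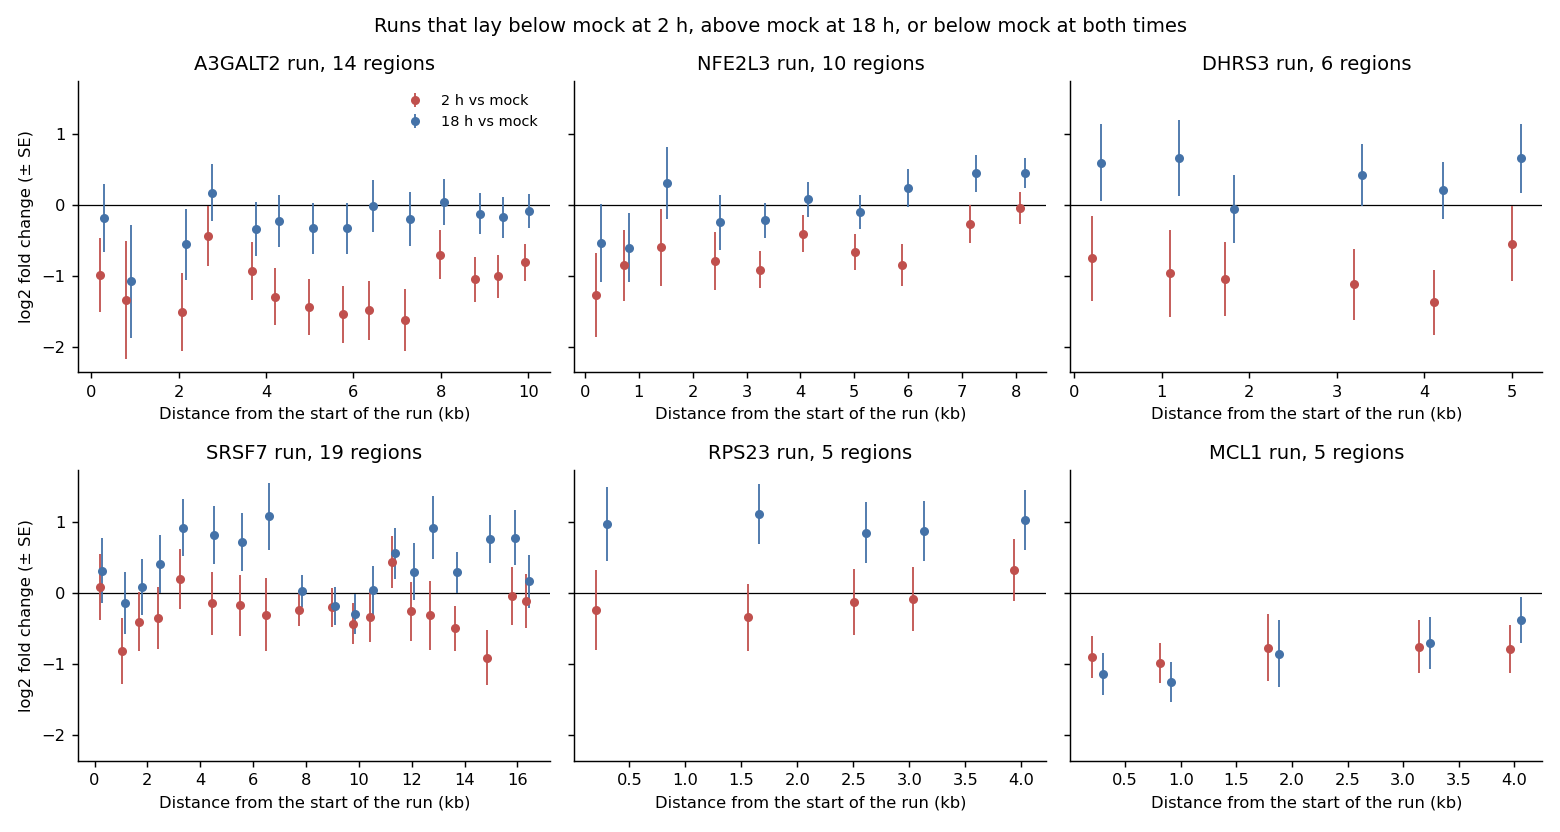
Log2 fold change of each region against mock in 6 further runs, at 2 h (red) and 18 h (blue), with bars for the SE, against the distance in kb from the start of the run. In A3GALT2, NFE2L3 and DHRS3 the red medians are -1.17, -0.73 and -1.01, in SRSF7 and RPS23 the blue medians are 0.32 and 0.98, and in MCL1 both lie low (-0.78 and -0.85).

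RPS20, RPS23 and RPLP1, which encode ribosomal proteins, had run medians of 1.31, 0.98 and 0.76 at 18 h against mock, 0.21, -0.12 and -0.01 at 2 h, and 1.05, 0.98 and 0.71 from 2 h to 18 h. The runs of RPLP1 and RPS23 touched no coding gene's span. That of RPS23 lay past the gene end (chr5:82267030-82271263), 7.13 to 10.9 kb from its start. Its 5 values at 18 h were 0.98 ± 0.52, 1.12 ± 0.42, 0.86 ± 0.44, 0.88 ± 0.42 and 1.04 ± 0.42 in the authors' deposited table, against -0.33 to 0.33 at 2 h, so the values of the 2 times did not overlap. None was tested, since their mean signals were 20.9 to 38.4. In RPS20 the values at 18 h were 1.52 ± 0.54, 1.68 ± 0.56, 1.31 ± 0.45, 0.65 ± 0.39 and 0.24 ± 0.29 towards the gene start in the authors' deposited table.

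Over all cytosolic ribosomal protein names, a family picked after these runs were seen, 31 genes had 203 regions in runs. The median of a gene's run regions was above mock at 18 h for 24 of the 31, where 63.5% of all genes in runs were, and above 0 from 2 h to 18 h for 25, where 56.1% were. With centring within bins of mean signal the counts were 23 and 25, where 58% and 54.8% were, and with centring on the median tested region 25 and 24, where 74.4% and 54.2% were. Of 95 tested from 2 h to 18 h, 0 rose and 1 fell, where 0.498% and 2.98% of all tested regions did. For the splicing and RNA-binding names SRSF and HNRNP, 8 of 9 genes were above mock at 18 h (7 with centring within bins). From 2 h to 18 h 6 of the 9 were above 0, where 56.1% of all genes in runs were. Of 31 tested regions 2 rose from 2 h to 18 h, where 0.498% of all tested regions did. These 2 regions were named for SRSF7 (1.67 ± 0.37, adjusted p = 0.000736) and HNRNPDL (1.14 ± 0.35, adjusted p = 0.0361) in the authors' deposited table (DESeq2). The HNRNPDL run touched no coding gene's span. The SRSF7 run reached over 19 regions (chr2:38733325-38749962), with medians of -0.25, 0.32 and 0.67, and all 19 values were above 0 from 2 h to 18 h. Runs named for the cold-inducible RNA-binding protein gene RBM3 and the cyclophilin gene PPIA had medians of 0.75 and 0.70 at 18 h, with no call. The PPIA run touched no coding gene's span. A run of 7 named for SOX9, a transcription factor gene, touched no coding gene's span, that of SOX9 included. All its values lay above mock at both times, with medians of 0.41 and 0.71. Over all 21 SOX9 regions in 3 runs the medians were -0.03 at 2 h, with 10 above and 11 below mock, and 0.43 at 18 h.

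For MCL1, which encodes an anti-apoptotic BCL2 family protein, a run of 5 had medians of -0.78 at 2 h and -0.85 at 18 h, and 1 region fell at 2 h (-0.98 ± 0.28, adjusted p = 0.0369, DESeq2, authors' deposited table). The immediate early gene NR4A1 (5 regions) had -0.81 and -0.92. A run of 6, 4 of them named for PPP1R15A, a stress gene that acts on translation initiation, had -0.64 and -1.15. The latter was the lowest median of all runs at 18 h. This run touched the coding span of TULP2, for which its other regions were named, and not that of PPP1R15A. In the runs of NR4A1 and PPP1R15A 0 regions passed. TIMP3, a metalloproteinase inhibitor gene, had 56 regions in 3 runs. Its run of 14 had all values below mock at 18 h (median -0.61; -0.31 at 2 h), and its run of 24 lay at -0.45 at 2 h and -0.19 at 18 h. A run of 6 near the chaperone gene HSP90AA1 had a median of 0.16 at 2 h, with 5 of 6 values above mock, and of -0.61 at 18 h.

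**Figure D5:**
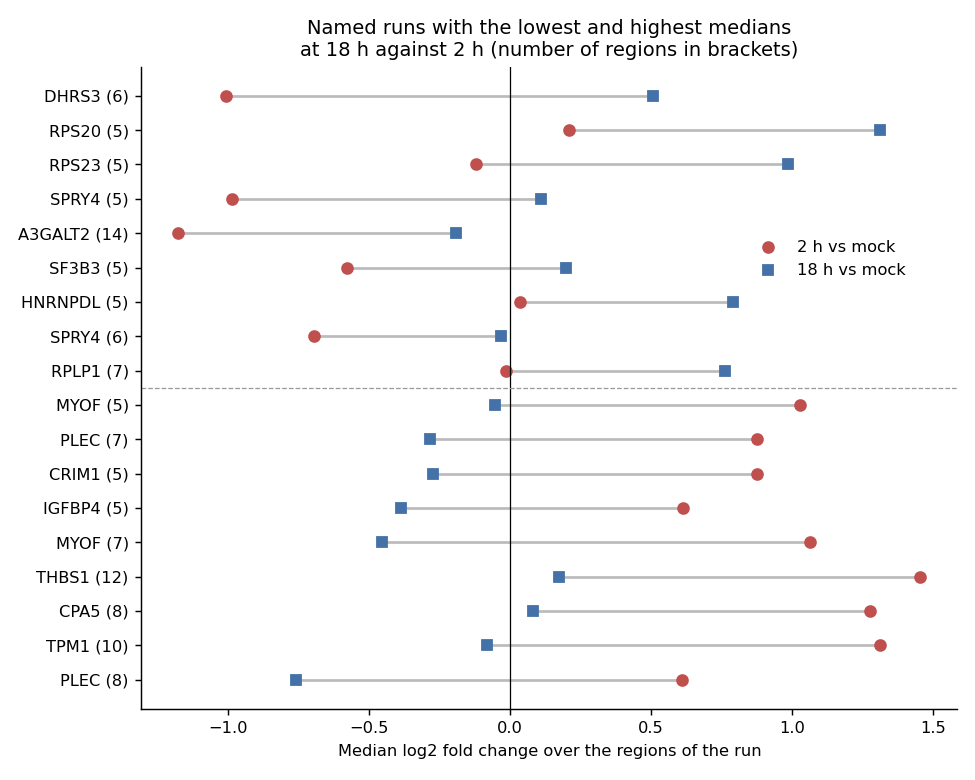
Medians of 18 runs, the 9 lowest and the 9 highest from 2 h to 18 h among the named runs, at 2 h against mock and at 18 h against mock, on a log2 scale. The lowest include PLEC, TPM1, CPA5 and THBS1 (2 h medians 0.61, 1.31, 1.27 and 1.45), and the highest include DHRS3, RPS20, RPS23 and A3GALT2 (2 h medians -1.01, 0.21, -0.12 and -1.17). The runs were picked on these values, so the plot is a description.

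At 2 h, ZCCHC24, a zinc finger gene, had a region that fell (-0.88 ± 0.15, adjusted p = 9.49e-06) in a run whose median was -0.20 (authors' deposited table, DESeq2). HIVEP3 (-0.69 ± 0.19), the splicing regulator gene SFSWAP (-0.54 ± 0.14), DNM1, which encodes a dynamin (-0.48 ± 0.12), TRIB1, a pseudokinase gene (-0.45 ± 0.11), and C14orf80 (-0.40 ± 0.11) also fell at 2 h in the authors' deposited table. At 2 h the run medians were -0.22, 0.07, -0.62, -0.36 and -0.25 in this order. Of these, TRIB1 rose by 0.39 ± 0.11 from 2 h to 18 h in the authors' deposited table. The runs named for SFSWAP, TRIB1 and C14orf80 touched no coding gene's span. The calls of HIVEP3 and C14orf80 were lost with centring on the median tested region, and those of SFSWAP, C14orf80, TRIB1 and DNM1 within bins of mean signal.

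Among the regions that rose at 2 h, those named for RPEL1 (0.72 ± 0.15), the adhesion scaffold gene NEDD9 (0.72 ± 0.18), CCDC85C (0.71 ± 0.19) and TMPO, a nuclear lamina gene (0.70 ± 0.18), stood next to IRS2 in the authors' deposited table. From 2 h to 18 h these 4 fell by 0.97 ± 0.15, 1.13 ± 0.18, 1.18 ± 0.19 and 1.07 ± 0.18 in the authors' deposited table. INPP4B (-1.35 ± 0.21) and the protein kinase C gene PRKCA (-1.27 ± 0.21) fell from 2 h to 18 h without a call at 2 h in the authors' deposited table. Run medians from 2 h to 18 h were -0.29 for RPEL1, -0.79 for NEDD9, -0.70 for CCDC85C and -0.36 for TMPO. For INPP4B and PRKCA they were -0.00 and -0.78. The runs named for RPEL1, NEDD9 and TMPO touched no coding gene's span.

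Counting members with no less mean signal than the middle tested region, those that rose from 2 h to 18 h with the highest values lay in the runs of SF3B3, a spliceosome gene (0.78 ± 0.21), CD44, the hyaluronan receptor gene (0.68 ± 0.17), ACTN4 (0.64 ± 0.19), TRIM41, a ubiquitin ligase gene (0.62 ± 0.19), SOX6 (0.56 ± 0.18) and RPS10-NUDT3 (0.54 ± 0.16) in the authors' deposited table. The SF3B3 run touched the coding span of IL34 and not that of SF3B3. In CD44 the other 4 regions of the run had values of -0.63 to -0.36 in the authors' deposited table. So the called CD44 region differed in sign from the run. It also had the most signal of the run (228). The call of SOX6 was lost with centring on the median tested region.

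Lists of related genes, chosen with earlier results of these data known, were counted in the runs. Of 30 actin, adhesion and plakin genes, 17 had 231 regions in runs. Their counts stand beside shares of all tested regions of 0.856% higher and 0.421% lower at 2 h and of 2.98% lower and 0.498% higher from 2 h to 18 h. At 2 h 2 of 58 tested rose, and from 2 h to 18 h 19 of 110 fell and 2 rose. The 19 included 13 at PLEC. Of 21 YAP and TEAD targets, 5 had 159 regions, and 9 of 64 tested fell from 2 h to 18 h, at AMOTL2, AXL, CRIM1 and WWTR1. WWTR1, which encodes the co-activator TAZ, had 61 regions in 10 runs and medians of -0.16, -0.15 and 0.05. Of 24 matrix genes, 5 were in runs, with 10 of 23 tested regions higher at 2 h and 11 of 43 lower from 2 h to 18 h, 10 in each case at THBS1. Laminin gene LAMA5, with 39 regions, had medians of -0.05, 0.03 and 0.06.

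The same shares of all tested regions, 2.98% lower from 2 h to 18 h and 0.421% lower at 2 h, apply to the lists that follow. Of 18 genes of amino acid transport and the ATF4 stress response, 3 were in runs, and 17 of 31 tested regions fell from 2 h to 18 h, 16 of them at SLC7A5 and 1 at SLC7A1. SLC38A2, with 10 regions, had medians of 0.02, -0.14 and -0.22. Of 17 genes of MAPK output, 7 were in runs, and 5 of 40 tested fell from 2 h to 18 h, at CCND1, EPHA2 and SPRY4. EPHA2, an ephrin receptor gene, had 14 regions, all above 0 at 2 h (median 0.37) and all below 0 from 2 h to 18 h (median -0.83). Of 26 AP-1 and immediate early genes, 6 had 38 regions, with 1 of 15 tested lower at 2 h (MCL1) and 0 of 20 called from 2 h to 18 h. Housekeeping genes had 52 regions of 7 genes and 0 calls in the 3 comparisons. Among high mobility group genes only HMGN2 and HMGB1 had regions in runs (10 and 3), while HMGA1 had 0. The HMGN2 regions had medians of -0.08, 0.32 and 0.66, and all 10 were above 0 from 2 h to 18 h with 0 of 4 tested called.

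Few markers of other cell types had regions in runs, but so did few gene names of any kind (2230 of 18765). The counts of markers were not tested against that share. Of 7 fibroblast, 6 endothelial and 6 immune markers 0 had a region in a run, and of 7 keratinocyte markers 1, KRT5, had 5, of which 2 of 5 tested fell from 2 h to 18 h (2.98% over all tested regions). At gene starts, a region was present for 0 of the 6 immune, 1 of the 7 fibroblast, 2 of the 6 endothelial, 3 of the 7 keratinocyte, 4 of the 11 melanocyte and 6 of the 10 undifferentiated melanoma markers. The pigment genes TYR, TYRP1, DCT, PMEL and MLANA had none. Of the melanocyte markers only SOX10, at 1 region, was in a run.

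Regions of a run were described together. The SD of the log2 fold changes within a run had a median of 0.27 in each comparison, and the SD of the run medians was 0.26 at 2 h, 0.22 at 18 h and 0.28 from 2 h to 18 h. In the 75, 7 and 307 runs with at least 5 tested regions the median SD within a run was 0.21, 0.14 and 0.22. All regions were above 0 in 229, 215 and 200 runs, and all below 0 in 141, 126 and 207. Of the runs with 10 or more regions, 26 were wholly above and 10 wholly below mock at 2 h, 9 and 4 at 18 h, and 10 and 24 were wholly above and below 0 from 2 h to 18 h. A median of at least 0.5 in size was reached by 130, 81 and 148 runs, of which 114, 81 and 110 held 0 called regions.

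A call in a run was often single. From 2 h to 18 h, 59 of the 80 runs with a lower call had exactly 1. In 66 of the 80, the regions that were not called had a median below 0 too, and in 29 it was at most -0.5. The median over the 80 was -0.31, against 0.03 over all runs. At 2 h, 19 of the 22 runs with a higher call had exactly 1, and the median of the other regions was above 0 in 20 and at least 0.5 in 11.

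The region with the most signal in a run often had a smaller value than the run. Among the 104 runs with a median of at least 0.5 at 2 h, that region lay below the run's median in 67. In 19 of them it had at least 3 times the median signal of the run, and there it lay below it in 18 of 19, with a median of 0.04 against 0.71 for the runs. Of 29 such runs with a median of at most -0.5 from 2 h to 18 h it lay above the median in 26 (-0.22 against -0.78), and of 14 with at least 0.5 at 18 h it lay below in 13 (0.07 against 0.58). SLC7A5, TPM1 and the second run of PLEC are examples. The runs were picked on their medians, so these counts are a description.

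Calls were also counted by the place of a region relative to its gene, without a test. Inside the span of the named gene lay 10049 members (61.6%), before its start 1880, past its end 1760 and within 1 kb of its start 1070. For the other 1552 no span or strand could be matched. Within 1 kb of a start 0 of 422 tested members were called at 2 h, where 0.0715% of all tested regions at such places were higher and 0.0954% lower. From 2 h to 18 h 1 of 561 rose and 2 fell (0.178% and 0.357%, against 0.141% and 0.259% of all). Inside the span 26 of 1772 rose and 8 fell at 2 h (1.47% and 0.451%, against 0.835% and 0.49% of all), and 92 of 3176 fell from 2 h to 18 h (2.9%, against 3.23% of all). Past the end 6 of 387 rose at 2 h (1.55%, against 1.23%) and 16 of 634 fell afterwards (2.52%, against 3.47%). The first and last regions of a run had 8 higher and 7 lower calls of 1228 at 2 h (0.651% and 0.57%). The inner regions had 29 and 5 of 2088 (1.39% and 0.239%). Of all tested regions 0.856% and 0.421% were called higher and lower. Shares by place in the run were not counted without the runs of THBS1, SLC7A5 and PLEC. From 2 h to 18 h, 40 of 1692 first or last and 96 of 3816 inner regions fell (2.36% and 2.52%, against 2.98%).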

How the data were processed

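ATAC-seq was measured in 6 libraries, 2 each of mock, 2 h and 18 h. The deposited tables hold, for each region, the authors' DESeq2 comparison: a mean signal (counts divided by size factors), a log2 fold change with its SE, a Wald score, a p-value and an adjusted p-value, with a gene name and a distance. The submitters' processing notes name bcl2fastq 2.17, DESeq2 and the build hg38, which the positions printed here follow. The aligner, the peak caller, the counting and any Tn5 shift are not given in the sources used here. Because these tables hold 0 columns of single libraries, nothing could be refitted. Whether starts count from 0 or 1 is not stated.

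Repeat listings of a region were left out (6524 for 18 h against 2 h). Regions were joined into runs (gap at most 1000 bases, 5 or more regions) with Python 3.11.15, pandas 2.3.3, NumPy 2.4.6 and SciPy 1.17.1, and plotted with matplotlib 3.10.9. Joining and recalculated calls were tested on simulated data. A call is an adjusted p under 0.05 (DESeq2, adjusted by the authors over the tested regions). Medians of runs are over all regions with a value. Places use RefSeq spans (2156 of 2230 gene names matched), and motif letters the RefSeq promoters. The members, lists and rules were chosen with earlier results of these data known. Single regions were named, up to 6 for each comparison and direction, by the largest called changes leaving out those with less mean signal than the middle tested region, 1 for each run. Runs were named by size, called regions, signal or gene list, and, after their values were seen, by extreme medians, uniform sign or family; other called regions were named through such runs. Some items are not reported here. Alternatives varied the gap, run size, threshold, centring and signal filter.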

Additional observations from a re-analysis of the deposited data

Results flagged for a closer look

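The comparison of 18 h with 2 h is the test of the difference between the 2 comparisons against mock. Each call in it marks a region whose signal differed between the times. Without a mock group for each time, a changed effect of HMGA1 cannot be told apart from other differences between the times. In the runs 136 regions were called lower and 13 higher, or 2.47% and 0.236% of the tested members, against 2.98% and 0.498% of all tested regions. Among the named regions that fell, the authors' deposited table gave log2 differences of -2.18 for THBS1, -1.49 for IRS2, -1.35 for INPP4B, -1.27 for PRKCA, -1.18 for CCDC85C and -1.13 for NEDD9. Among those that rose, the authors' deposited table gave 0.78 for SF3B3, 0.68 for CD44, 0.64 for ACTN4, 0.62 for TRIM41, 0.56 for SOX6 and 0.54 for RPS10-NUDT3 (DESeq2 adjusted p between 0.00312 and 0.0471).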

How the results depend on the processing

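No paired analysis was possible because the files hold no values of single libraries. For the same reason the planned fits with the replicate number as a block and without each replicate were not run. Counts followed the definition of a run. With gaps of at most 500 bases, gaps of at most 2000 bases, runs of 3 or more and runs of 8 or more there were 661, 4505, 9805 and 645 runs in place of 2310. In that order of settings, 8, 80, 87 and 20 regions were higher at 2 h (37 as reported) and 1, 43, 42 and 1 lower (12). The lower ones were 0.195%, 0.425%, 0.364% and 0.0823% of the tested members, against 0.421% of all tested regions. The higher ones were 1.56%, 0.791%, 0.755% and 1.65% of the tested members (1.12% as reported), against 0.856% of all tested regions, so the share lay below that of all regions with gaps of at most 2000 bases and with runs of 3 or more. From 2 h to 18 h, 29, 377, 443 and 61 were lower (136) and 2, 42, 49 and 5 higher (13). The lower ones were 2.59%, 2.64%, 2.71% and 2.68% of the tested members, against 2.98% of all tested regions. The higher ones were 0.179%, 0.294%, 0.3% and 0.22%, against 0.498%. Runs with a call numbered 5, 97, 110 and 7 at 2 h (34) and 13, 302, 410 and 29 from 2 h to 18 h (92). At 18 h against mock, where 2 regions in 2 runs were lower, the first 3 settings gave 0, 11 and 13 regions in 0, 11 and 13 runs. The 11 and 13 were 0.181% and 0.193% of the tested members, against 0.116% of all tested regions. Runs of 8 or more held 2 (0.444%).

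At an adjusted p under 0.01, 22 regions were higher and 2 lower at 2 h in 12 runs, 1 was lower at 18 h in 1 run, and 76 were lower and 3 higher from 2 h to 18 h in 47 runs. In this order they were 0.663%, 0.0603%, 0.0646%, 1.38% and 0.0545% of the tested members. Of all tested regions 0.438%, 0.15%, 0.0416%, 1.75% and 0.207% were called. Under 0.1, 21 were lower at 2 h, 1 was higher and 9 lower at 18 h in 10 runs, and 22 were higher from 2 h to 18 h. These made up 0.633%, 0.0646%, 0.581% and 0.399% of the tested members, against 0.794%, 0.0126%, 0.305% and 0.84% of all tested regions. Called changes of at least 2-fold numbered 23 higher and 0 lower at 2 h in 9 runs, 0 at 18 h in 0 runs, and 76 lower and 4 higher from 2 h to 18 h in 40 runs. The 23 were 0.694% of the tested members, against 0.18% of all tested regions, and 0.0104% of all were lower at 2 h. From 2 h to 18 h the 76 were 1.38%, against 0.708%, and the 4 were 0.0726%, against 0.0453%. So the lower share lay above that of all regions, where as reported it lay below (2.47% against 2.98%). Centring on the median tested region and within bins left 4 and 5 lower at 2 h and 0 and 0 at 18 h in 0 and 0 runs, with splits from 2 h to 18 h of 12 higher and 145 lower, and 12 and 144. The 4 and 5 were 0.121% and 0.151%, against 0.23% and 0.201% of all tested regions. The first split was 0.218% and 2.63%, against 0.456% and 3.16%, and the second 0.218% and 2.61%, against 0.454% and 3.21%. Without a filter on mean signal 7 were lower at 2 h, 1 at 18 h in 1 run, and 8 higher from 2 h to 18 h. They were 0.0429%, 0.00614% and 0.049% of the members, against 0.0908%, 0.0141% and 0.164% of all regions. Among regions tested in all 3 comparisons 24 were higher at 2 h (1.55%, against 1.25% of all such regions) and 71 lower from 2 h to 18 h (4.58%, against 5.1%). Without the runs of THBS1, SLC7A5 and PLEC, a setting chosen after seeing the data, 18 were higher at 2 h (0.549%, against 0.856% of all tested regions). The cause of these differences was not tested, beyond the number of regions that each setting tests or joins.

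Of 25 results for named regions, 14 stayed called under 0.01, 25 under 0.1 and 21 and 20 under the 2 centrings. Among regions tested in all comparisons 25 stayed called, without a filter 20 and at 2-fold 8, and 0 changed sign. The count under 0.1 was fixed in advance, since the regions were named from calls under 0.05. Only the 2 centrings could have changed a sign. With 2 libraries a group and weak signal, most single regions of runs could not be tested.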

Other observations

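Runs of 29 regions lay at CASKIN1, a synaptic scaffold gene, with medians of -0.00, 0.15 and 0.14 at 2 h, at 18 h and from 2 h to 18 h, and on chromosome 2 (chr2:91502524-91528960) under the name of RPIA, with 0.39, 0.24 and -0.13. The RPIA run had a median mean signal of only 6.91 and 1 tested region. Runs of 26 at PYGB, the brain glycogen phosphorylase gene, and of 24 at CHERP had medians of -0.10, 0.18 and 0.33, and 0.22, 0.09 and -0.17. CSPG4, a melanoma-associated proteoglycan gene, had a run of 22 with -0.10, -0.10 and 0.03. In these 5 runs 0 regions were called, and 0 in the run of 24 at TIMP3, whose medians were -0.45, -0.19 and 0.27 with 23 of 24 values below mock at 2 h.

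For families of gene names, 0.856% of all tested regions were called higher and 0.421% lower at 2 h, and 0.498% and 2.98% from 2 h to 18 h. Zinc finger names beginning with ZNF had 162 regions of 28 genes and 0 calls, of 28, 9 and 53 tested in the 3 comparisons. The phosphatase names DUSP had 48 regions of 6 genes and 0 calls of 13, 7 and 19 tested, and histone cluster names 22 regions of 6 genes and 0 calls of 13, 8 and 17. Keratin names had 27 regions of 3 genes, of which 2 of 17 tested fell from 2 h to 18 h.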
